A study of Mus musculus with 9 samples.

Results

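NRF2, the transcription factor encoded by Nfe2l2, and 9 genes of its targets and of thiol redox chemistry (Nqo1, Txn1, Txnrd1, Srxn1, Gclc, Gclm, Hmox1, Prdx1 and Gpx4) were followed in mouse quadriceps. The genes were taken by name from a list of NRF2, its targets and thiol redox enzymes; no threshold on their values was applied, but the list was drawn up with earlier results of these data known. All 10 were found among the 13116 genes of the deposited table, and all 10 were among the 13089 tested. The samples were 9 polyadenylated RNA libraries of quadriceps from male mice, 18 months old, in 3 groups of 3. WT_PBS mice were wild type and received PBS. KO_PBS mice lacked Gaa, the lysosomal enzyme that degrades glycogen and is deficient in Pompe disease, and also received PBS. KO_secGAA mice carried the same knockout and received AAV8-sp7-delta8-hGAAco, a vector for transgenic expression of a secreted enzyme (secGAA). PBS or vector was given through the tail vein at 9 months of age, 9 months before sampling. The labels do not name the promoter of the vector or say in so many words that each library came from its own animal, so that p-values measure the spread between libraries.

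In resting cells NRF2 is held by KEAP1, which presents it to a CUL3 ubiquitin ligase for destruction. Oxidants and electrophiles modify KEAP1, NRF2 accumulates, and with a small MAF protein it binds antioxidant response elements near genes for glutathione synthesis, thioredoxin recycling, quinone reduction and heme breakdown. The autophagy receptor p62, encoded by Sqstm1, can also bind KEAP1 and so compete with NRF2. In skeletal muscle these enzymes buffer hydrogen peroxide and lipid peroxides made by contraction and by mitochondria.

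The targeted gene, Gaa, was at 128.6 to 296 normalized counts in WT_PBS and at 14.02 to 17.78 in both knockout groups together, so the libraries matched their genotype labels. The libraries held 9299156 to 15957106 reads in the genes of the table, and 3 reads were worth 0.196 to 0.276 normalized counts. Each of the 10 genes was covered by at least 76 reads in every library (the lowest was Hmox1) and by up to 10063 (Gpx4). Muscle fibre markers such as Pvalb, the calcium buffer of fast fibres (7203 to 14040 across libraries), and Des, the fibre intermediate filament (4334 to 7152), were abundant in every library, and the 13 fibre markers summed to 174500 to 202200 in WT_PBS, 126900 to 146500 in KO_PBS, then 155000 to 171400 in KO_secGAA. Markers of hepatocytes, the cells of the liver (Alb, Apoa1, Ttr, Serpina1a, Fgb and Tat), were not among the genes of the table. In whole muscle, fewer cells of a type and less RNA per cell cannot be told apart. Values are normalized counts as deposited, fold changes are on the log2(value + 0.5) scale, and a gene is said to have risen or fallen where limma's Benjamini-Hochberg adjusted p over all genes tested was under 0.05.

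In knockout muscle given PBS, 6 of the 10 genes rose against wild type and 0 fell. They were the transcripts of NRF2 (Nfe2l2), the quinone reductase Nqo1, thioredoxin (Txn1), its reductase Txnrd1, sulfiredoxin (Srxn1) and the lipid hydroperoxidase Gpx4. Over all genes tested, 10.9% rose and 11.0% fell in this comparison. The median log2 fold change of the 10 genes was 0.60, beside 0.01 over all genes. At an unadjusted p under 0.05 limma gave 9 higher and 0 lower. The share of all genes at an unadjusted p was not counted, here or below. Both edgeR's quasi-likelihood test and DESeq2 also called 6 higher and 0 lower, where they called 21.7% and 23.1% of all genes. In that comparison 9 of the 10 genes did not overlap between the groups, 8 of them higher in KO_PBS (20.7% of all genes) and Prdx1 lower (19.0% of all genes), with 39.7% of all genes in either direction. With treatment Txn1 and Gpx4 fell, and of the 6 genes all but Gpx4 were called above wild type in KO_secGAA.

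**Figure D1:**
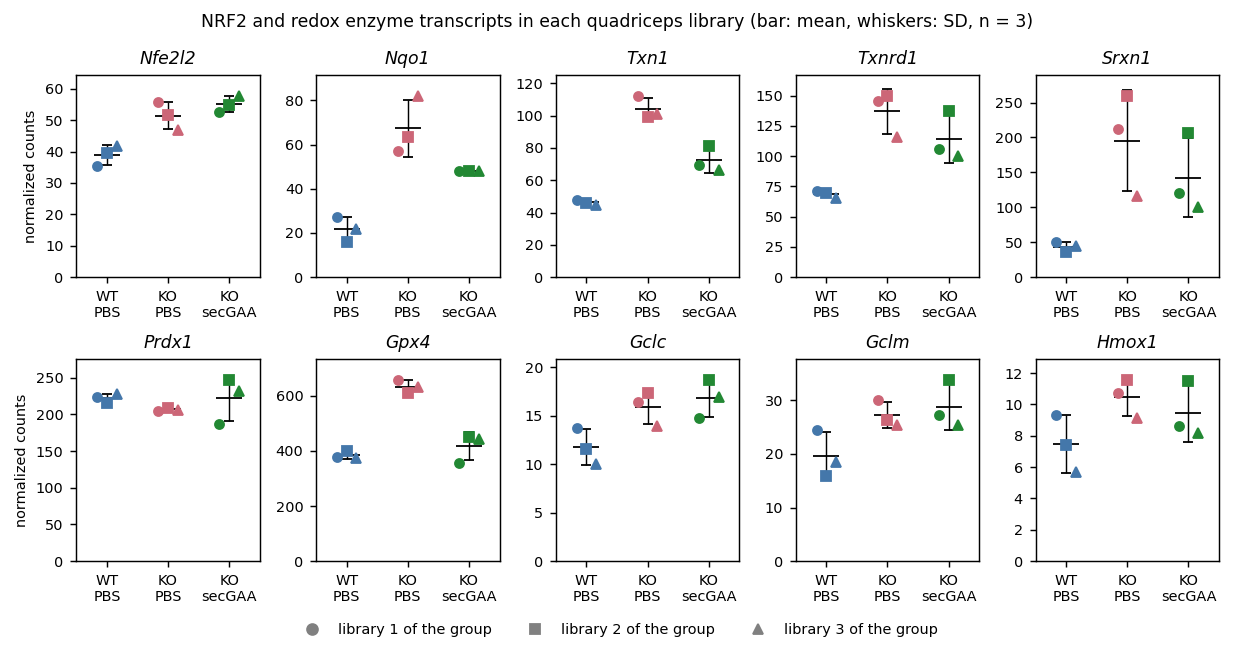
Normalized counts of each of the 10 genes (vertical axes from 0) in the 9 libraries, grouped as WT_PBS, KO_PBS and KO_secGAA; symbols are libraries, horizontal bars are means and whiskers are SDs (n = 3). Srxn1 spreads widely in both knockout groups, from 99.77 to 259.0, while Gpx4 in KO_secGAA (358.1 to 451.3) overlaps WT_PBS (373.7 to 400.5).

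Nfe2l2 (chromosome 2, 75675513 to 75704641, minus strand, GRCm38) encodes NRF2. It was at 35.34, 39.38 and 41.71 normalized counts in WT_PBS, against 55.75, 51.66 and 46.93 in KO_PBS and then 52.67, 54.94 and 57.61 in KO_secGAA. Every knockout library, treated or not, lay above every wild-type library, and the 2 knockout groups overlapped. The transcript rose 1.32-fold in KO_PBS (log2 0.40, SE 0.10, limma adjusted p = 0.0151) and was 1.42-fold higher in KO_secGAA than in WT_PBS (adjusted p = 0.0227). The first call ended without KO_PBS 1 (adjusted p = 0.0511). The second ended when any of the 6 libraries of its own groups was left out (adjusted p = 0.0507 to 0.0835). KO_secGAA and KO_PBS differed by 0.10 on the log2 scale, with a 95% interval of -0.11 to 0.31.

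Nqo1 (chromosome 8, 107388225 to 107403206, minus strand) encodes the NAD(P)H quinone reductase that is the usual reporter of NRF2 activity. It was at 27.25, 15.98 and 21.95 in WT_PBS, against 57.05, 63.48 and 81.87 in KO_PBS and then 47.97, 48.21 and 47.81 in KO_secGAA. The 3 groups did not overlap at all, and the treated libraries lay between the other groups with an SD of 0.20. That SD is less than 3 reads are worth in these libraries (0.216 to 0.276). With 3 libraries it does not show how tightly the level is held. Nqo1 rose 3.09-fold in KO_PBS (log2 1.63, SE 0.18, limma adjusted p = 0.000348). In KO_secGAA it was still 2.23-fold above wild type (log2 1.16, adjusted p = 0.0118), a call that ended without WT_PBS 3 (adjusted p = 0.0545). Between KO_secGAA and KO_PBS the log2 difference was -0.47 (95% interval -0.88 to -0.06), which did not pass over all genes (adjusted p = 0.201).

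Thioredoxin and its partners form a chain: thioredoxin reduces disulfides, thioredoxin reductase recharges it with NADPH, peroxiredoxins destroy peroxide with thioredoxin's electrons, and sulfiredoxin rescues overoxidized peroxiredoxin. Txn1 (chromosome 4, 57943373 to 57956411, minus strand) was at 48.02, 45.99 and 44.9 in WT_PBS, against 112.0, 99.41 and 101.1 in KO_PBS and then 69.44, 81.25 and 66.19 in KO_secGAA. As with Nqo1, no 2 groups overlapped. Txn1 rose 2.23-fold in KO_PBS (log2 1.16, SE 0.09, limma adjusted p = 6.03e-05). It fell by 0.53 on the log2 scale with treatment (SE 0.09, adjusted p = 0.0184) and stayed 1.55-fold above wild type (adjusted p = 0.00985). The treatment call ended without KO_PBS 1, KO_secGAA 1 or KO_secGAA 3 (adjusted p = 0.0614, 0.0518 and 0.0634), and the call against wild type without WT_PBS 3 (adjusted p = 0.0545). GENCODE M21 also annotates a processed pseudogene, Txn-ps1, and how reads shared with it were counted is not given in the sources used here.

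Txnrd1 (chromosome 10, 82833951 to 82897712, plus strand), the cytosolic thioredoxin reductase and a selenoprotein, was at 70.78, 69.66 and 65.55 in WT_PBS, against 145.8, 149.5 and 115.5 in KO_PBS and then 105.9, 137.2 and 100.4 in KO_secGAA. All 6 knockout libraries stood above the wild-type libraries, and the treated and untreated groups overlapped through KO_secGAA 2 and KO_PBS 3. It rose 1.98-fold in KO_PBS (log2 0.98, SE 0.13, limma adjusted p = 0.000988) and was 1.65-fold above wild type in KO_secGAA (adjusted p = 0.0208). The difference between KO_secGAA and KO_PBS was -0.26 (95% interval -0.56 to 0.04, adjusted p = 0.331).

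Srxn1 (chromosome 2, 152105516 to 152111376, plus strand), which encodes sulfiredoxin, had the largest fold change of the 10 genes against wild type in both knockout groups. Its normalized counts were 49.8, 35.73 and 44.97 in WT_PBS, against 211.8, 259.0 and 115.9 in KO_PBS and then 120.9, 206.5 and 99.77 in KO_secGAA. The lowest knockout library was at 99.77 and the highest wild-type library at 49.8. The coefficient of variation was 37.3% in KO_PBS and 39.7% in KO_secGAA, against 16.4% in WT_PBS. Srxn1 rose 4.26-fold in KO_PBS (log2 2.09, SE 0.32, limma adjusted p = 0.00172) and was 3.12-fold above wild type in KO_secGAA (log2 1.64, adjusted p = 0.0236). KO_secGAA and KO_PBS differed by -0.45 with a 95% interval of -1.16 to 0.26, so a fall to 0.45-fold and a rise to 1.20-fold both lay within it. For Txnrd1 and for Srxn1, the call of KO_secGAA against wild type ended without WT_PBS 2, WT_PBS 3, KO_secGAA 1 or KO_secGAA 2 (adjusted p = 0.0526 to 0.0938 for Txnrd1 and 0.0669 to 0.0901 for Srxn1).

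Prdx1 (chromosome 4, 116685544 to 116700822, plus strand), the abundant cytosolic peroxiredoxin that thioredoxin recharges, did not follow them. It was at 223.3, 215.8 and 227.7 in WT_PBS, against 205.1, 208.9 and 206.5 in KO_PBS and then 186.6, 246.4 and 231.9 in KO_secGAA. The KO_PBS libraries all lay below the wild-type libraries, by a small margin, and KO_secGAA spanned both groups. Its log2 difference was -0.10 in KO_PBS against WT_PBS (95% interval -0.33 to 0.12, limma adjusted p = 0.507). The fold thus lay between 0.80 and 1.09, an interval that does not include the rises of Txn1, Txnrd1 or Srxn1. The sign turned with quantile normalization (0.01) and without the scaling factors (0.21, where the median gene shifted by 0.30).

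Gpx4 (chromosome 10, 80047166 to 80056439, plus strand) encodes the selenium-dependent peroxidase that reduces lipid hydroperoxides in membranes and holds back ferroptosis. It was at 379.3, 400.5 and 373.7 in WT_PBS, against 656.5, 609.6 and 631.7 in KO_PBS and then 358.1, 451.3 and 444.2 in KO_secGAA. Every KO_PBS library lay above all 6 others, and KO_secGAA overlapped wild type. Gpx4 rose 1.64-fold in KO_PBS (log2 0.72, SE 0.10, limma adjusted p = 0.0011) and fell by 0.60 with treatment (SE 0.10, adjusted p = 0.0124). KO_secGAA and WT_PBS differed by 0.11 (95% interval -0.11 to 0.34, adjusted p = 0.55). Per kilobase of annotated exon, Gpx4 had the highest level of the 10 genes in WT_PBS, 223.0 normalized counts, followed by Prdx1 at 73.05 and Txn1 at 44.05, with the other 7 at 3.12 to 15.43. A transcribed processed pseudogene, Gpx4-ps2, is annotated as well, and sharing of reads with it was not tested.

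Glutathione synthesis starts with glutamate-cysteine ligase, whose catalytic subunit is encoded by Gclc (chromosome 9, 77754535 to 77794485, plus strand) and whose modifier subunit by Gclm (chromosome 3, 122245557 to 122270732, plus strand). Gclc was at 13.74, 11.56 and 10.03 in WT_PBS, against 16.47, 17.38 and 13.93 in KO_PBS and then 14.79, 18.66 and 16.97 in KO_secGAA. Gclm was at 24.44, 15.84 and 18.54 in WT_PBS, against 29.98, 26.36 and 25.42 in KO_PBS and then 27.23, 33.7 and 25.4 in KO_secGAA. For both subunits all 6 knockout libraries lay above all 3 wild-type libraries. In KO_PBS against WT_PBS the log2 differences were 0.43 for Gclc (95% interval 0.10 to 0.75, limma adjusted p = 0.0639) and 0.48 for Gclm (0.12 to 0.85, adjusted p = 0.0611). In KO_secGAA against WT_PBS they were 0.50 (adjusted p = 0.0896) and 0.55 (adjusted p = 0.0924). None of these 4 differences passed with all libraries and the scaling factors. Without WT_PBS 1, both subunits passed in KO_PBS against WT_PBS (adjusted p = 0.0335 and 0.0143), and Gclm in KO_secGAA against WT_PBS (adjusted p = 0.0347). Without the scaling factors, both passed in both comparisons (adjusted p = 0.00436 and 0.00576 in KO_PBS, 0.0318 and 0.0365 in KO_secGAA). Over all re-fits the adjusted p reached 0.208 and 0.185 in KO_PBS, and 0.269 and 0.254 in KO_secGAA.

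Hmox1 (chromosome 8, 75093621 to 75100589, plus strand) encodes heme oxygenase, which frees iron, carbon monoxide and biliverdin from heme. It was at 9.357, 7.413 and 5.663 in WT_PBS, against 10.73, 11.54 and 9.148 in KO_PBS and then 8.617, 11.5 and 8.179 in KO_secGAA. All 3 groups overlapped, since WT_PBS 1 lay above KO_PBS 3. Its log2 difference was 0.48 in KO_PBS against WT_PBS (95% interval 0.05 to 0.92, limma adjusted p = 0.108). WT_PBS 1 was the highest wild-type library for 7 of the 10 genes (37.2% of all genes tested), among them Gclc, Gclm and Hmox1. Leaving out the highest wild-type library widens their differences. Without it all 3 passed in KO_PBS against WT_PBS (adjusted p = 0.0335, 0.0143 and 0.0445). The count of risen genes went from 6 to 9, where 1214 of all 13089 genes rose. The 3 passed as well without the scaling factors (adjusted p = 0.00436, 0.00576 and 0.0146), where 4466 of all 13089 genes rose. Their log2 differences were then 0.73, 0.79 and 0.78 against the shift of 0.30 in the median gene. In other re-fits the adjusted p of the 3 rose to as much as 0.208, 0.185 and 0.326. Without WT_PBS 2, WT_PBS 3, KO_PBS 1 or KO_PBS 2, limma gave 7 genes higher at an unadjusted p under 0.05, not 9.

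**Figure D2:**
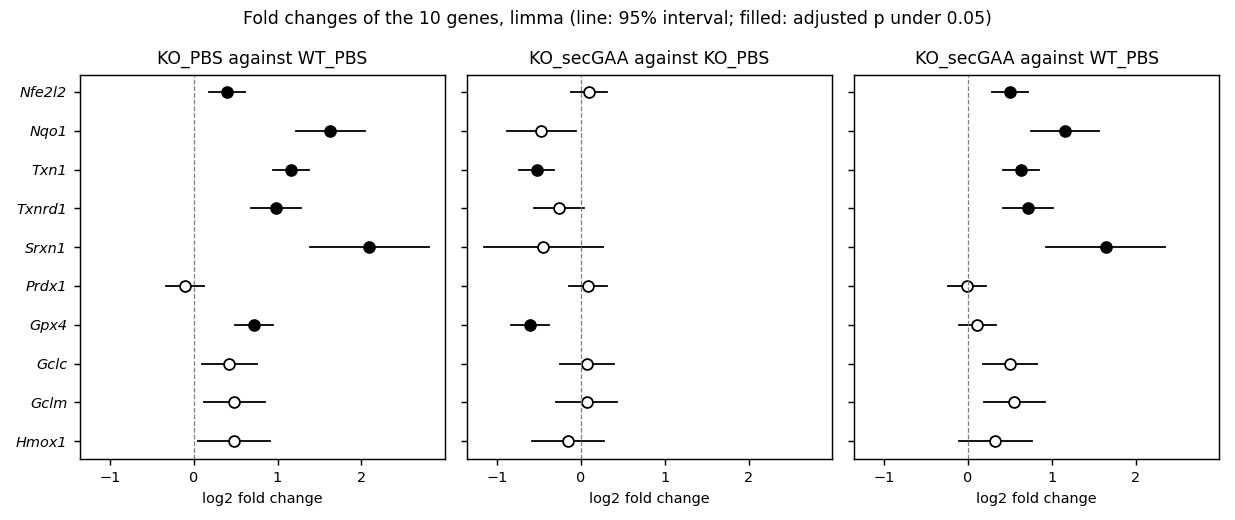
Log2 fold changes (horizontal axes) of the 10 genes in the 3 comparisons, with 95% intervals from limma; filled circles passed at an adjusted p under 0.05. In KO_PBS against WT_PBS 6 circles are filled, all to the right of 0; in KO_secGAA against KO_PBS the 2 filled circles, Txn1 and Gpx4, lie to the left.

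For treated against untreated knockout muscle, 2 of the 10 genes fell and 0 rose, where 2.31% of all genes fell and 1.37% rose. The 2 were Txn1 and Gpx4. At an unadjusted p under 0.05 limma gave 3 lower, with Nqo1 as the other, and 0 higher. Both edgeR and DESeq2 called 2 lower and 0 higher, where they called 3.4% and 6.1% of all genes. The 2 groups did not overlap for Nqo1, Txn1 and Gpx4, each lower with treatment, where 12.3% of all genes were lower without overlap, 11.7% higher and 24.0% either. The median log2 difference was -0.21, beside 0.00 over all genes. For treated knockout against wild-type muscle, 5 of the 10 rose (Nfe2l2, Nqo1, Txn1, Txnrd1 and Srxn1) and 0 fell, where 1.83% of all genes rose and 1.89% fell. In that comparison 7 of the 10 did not overlap with wild type, all of them higher, where 13.5% of all genes were higher without overlap (26.9% in either direction). The count of 5 dropped to 2 without WT_PBS 2, KO_secGAA 1 or KO_secGAA 2, and to 0 without WT_PBS 3. Calls over all genes dropped too, from 3.72% to 1.6%, 1.38%, 1.09% and 0.718% in the same order. In the fit without WT_PBS 3, limma gave an unadjusted p under 0.05 for 7 of the 10. That share was not counted over all genes. On the full set of libraries all 5 calls held with edgeR and with DESeq2, which called 3.84% and 7.81% of all genes. The comparisons share libraries and are not independent of each other.

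The treated libraries differed among themselves in a shared way. KO_secGAA 2 had the highest value of its group for 9 of the 10 genes, all but Nfe2l2, with a median deviation from the group mean of 0.17 on the log2 scale. Over all genes tested, it was the highest of its group for 32.6%. For Nqo1 that rank rested on 48.21 against 47.97 and 47.81, with an SD worth less than 3 reads. KO_secGAA 1 was the highest for 0 of the 10 (34.2% of all genes) and the lowest for 4 (32.5%). KO_secGAA 3 was the highest for 1 (33.2%) and the lowest for 6 (35.0%). In KO_PBS, library 3 was the lowest for 6 of the 10 (34.3% of all genes) but the highest for Nqo1. The order of libraries was thus not the same for every gene there. KO_secGAA 2 was also the highest of its group for the summed markers of several other cells. The 5 erythroid markers summed to 88.15, 448.3 and 146.0 in KO_secGAA 1, 2 and 3 (170.8 to 452.0 in WT_PBS and 32.98 to 176.0 in KO_PBS). The sums in the same order were 293.0, 377.4 and 178.0 for macrophage, 548.7, 645.0 and 515.3 for fibroblast, and 223.7, 253.9 and 213.2 for endothelial markers. Satellite cell markers (160.2, 181.4 and 202.5) and fibre markers (155000, 155400 and 171400) were highest in KO_secGAA 3, and the libraries held 10495715, 11323672 and 14406655 reads. The part of these cells or of depth in the pattern was not tested.

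**Figure D3:**
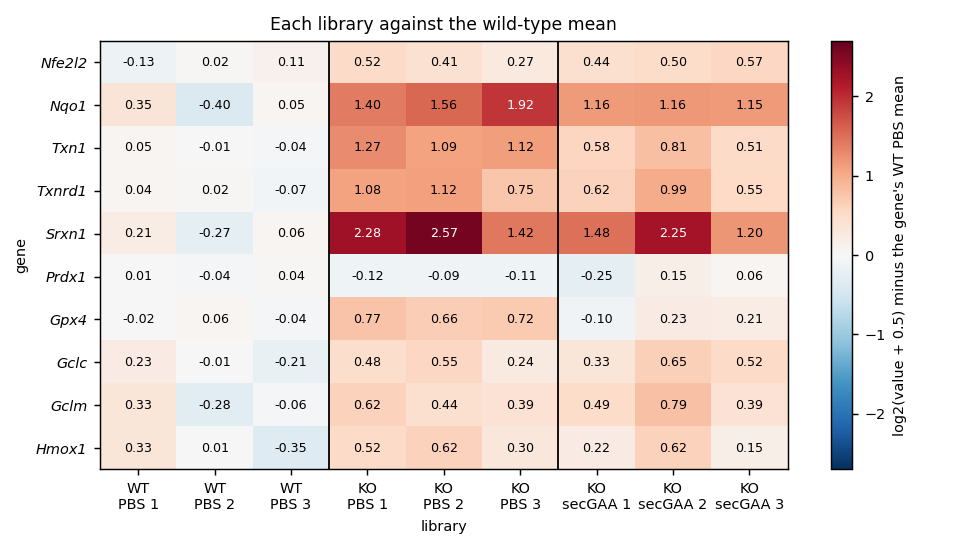
Log2(value + 0.5) of each gene (rows) in each library (columns), minus the gene's WT_PBS mean; red is higher and blue is lower. In the KO_secGAA columns, library 2 reaches 2.25 for Srxn1 and 0.99 for Txnrd1, against 1.48 and 0.62 in library 1 and 1.20 and 0.55 in library 3.

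Antioxidant response elements share the core TGACNNNGC. RefSeq windows of 300 bases (250 before to 50 after a transcription start, GRCm38.p6) were held for 8 of the 10 genes, in 13 windows. Gclc and Hmox1 were named only. The core, searched on both strands, was found in 5 of the 13 windows, 1 each for Nfe2l2, Txnrd1, Srxn1, Gclm and Prdx1, and in 12.4% of all 32851 windows. The stretches around the matches are shown because they come from genes that moved to different degrees in the same muscle. Each reads 5′ to 3′ on the gene's strand, and capitals mark the 9 bases of the match; the Srxn1 stretch lies after the start and is kept short.
Nfe2l2, chr2:75704870-75704913, minus strand: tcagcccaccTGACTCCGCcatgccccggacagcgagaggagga
Txnrd1, chr10:82859089-82859147, plus strand: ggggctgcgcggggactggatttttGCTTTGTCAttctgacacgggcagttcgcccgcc
Srxn1, chr2:152105542-152105570, plus strand: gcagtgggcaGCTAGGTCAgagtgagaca
Gclm, chr3:122245398-122245456, plus strand: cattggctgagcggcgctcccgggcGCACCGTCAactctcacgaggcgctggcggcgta
Prdx1, chr4:116685441-116685499, plus strand: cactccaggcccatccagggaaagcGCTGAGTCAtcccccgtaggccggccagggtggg
The match began 240 bases before the start in Nfe2l2, 134 before it in Gclm, 133 before it in Prdx1, 92 before it in the second of the 3 Txnrd1 windows and 28 after it in Srxn1. Only the Prdx1 match also overlapped TGANTCA, the AP-1 motif. Prdx1 and Gclm thus held a core match without a call in any of the 3 comparisons, while Nqo1, Txn1 and Gpx4, which rose, held none in these windows. A match is a string of letters and no measure of binding, and elements farther away were not searched.

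Other genes of the pathway were counted in 9 lists that held 120 tested genes besides the 10. In KO_PBS against WT_PBS 22 of them rose and 20 fell, which is 35.0% changed beside 21.9% of all genes, with a median log2 difference of 0.12. Of 13 partners of NRF2, 2 rose and 1 fell, near the shares of all genes (10.9% rose and 11.0% fell). Sqstm1, the p62 gene, rose 2.02-fold (limma adjusted p = 0.001), from 557.1 to 794.6 normalized counts in WT_PBS to 1224 to 1491 in KO_PBS. Mafg, a small MAF partner, rose 1.46-fold (adjusted p = 0.00745), and Cul3, the scaffold of the ligase that marks NRF2, fell by 0.51 (adjusted p = 0.00305; adjusted p = 0.0816 without the scaling factors). Keap1, named outside the rule for its role and chosen after its values were seen, was at 83.32 ± 3.57, 82.82 ± 4.51 and 88.77 ± 9.94 (SD, n = 3) in WT_PBS, KO_PBS and KO_secGAA, with a log2 interval of -0.22 to 0.20 in KO_PBS against WT_PBS.

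Of 16 other genes of glutathione synthesis and recycling, 4 rose and 2 fell, where 10.9% of all genes rose and 11.0% fell. Gsr, which regenerates reduced glutathione, rose 1.78-fold (limma adjusted p = 0.00186), with KO_PBS at 43.15 to 51.42 and WT_PBS at 24.24 to 29.44. Slc7a11, the cystine importer, rose from 0.1054 to 0.2399 normalized counts in WT_PBS, which is 3 reads or fewer, to 1.931 to 4.735 in KO_PBS (adjusted p = 0.00602), and Oplah, which makes glutamate from oxoproline, fell by 0.77 (adjusted p = 0.00233). Among 18 glutathione S-transferases, 3 rose and 5 fell. Gsta1 was below the level of 3 reads in every WT_PBS library and at 4.86 to 7.95 in KO_PBS (adjusted p = 0.000274). Gstp2 rose 3.06-fold (adjusted p = 7.33e-05), and Gstk1, of mitochondria and peroxisomes, fell by 0.75 (adjusted p = 0.00189). Gstp1 and Gstp2 are close copies whose reads may be shared.

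Among 19 other thioredoxin and methionine sulfoxide reductase genes, 2 rose and 5 fell in KO_PBS. Over all genes tested 10.9% rose and 11.0% fell, so the 2 rises lay near the share of all genes. The 5 were Txnrd2, Prdx3, Msra, Msrb2 and Msrb3, of which Txnrd2 and Prdx3 are the mitochondrial counterparts of Txnrd1 and Prdx1. Txnrd2 fell by 0.56 (limma adjusted p = 0.00304; adjusted p = 0.085 without the scaling factors) and Msrb3 by 1.27 (adjusted p = 7.67e-05), while Txnl1 rose 1.42-fold (adjusted p = 0.00137). Prdx3, Msra and Msrb2 were named to complete that count, outside the rule. Of 9 dismutase, catalase and peroxidase genes, 2 rose and 1 fell, the fall being near the share of all genes. Catalase (Cat) rose 1.88-fold (adjusted p = 0.00137), Gpx1 1.44-fold (adjusted p = 0.0345), and the mitochondrial dismutase Sod2 fell by 0.54 (adjusted p = 0.0305). The call of Gpx1 ended without WT_PBS 2, WT_PBS 3, any KO_PBS library or KO_secGAA 2, or with the 2 groups fitted alone (adjusted p up to 0.129). Sod2 lost its call when WT_PBS 2 or WT_PBS 3 was left out, and also without KO_PBS 2 or KO_PBS 3, without the scaling factors, or with the 2 groups alone (adjusted p up to 0.213).

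**Figure D4:**
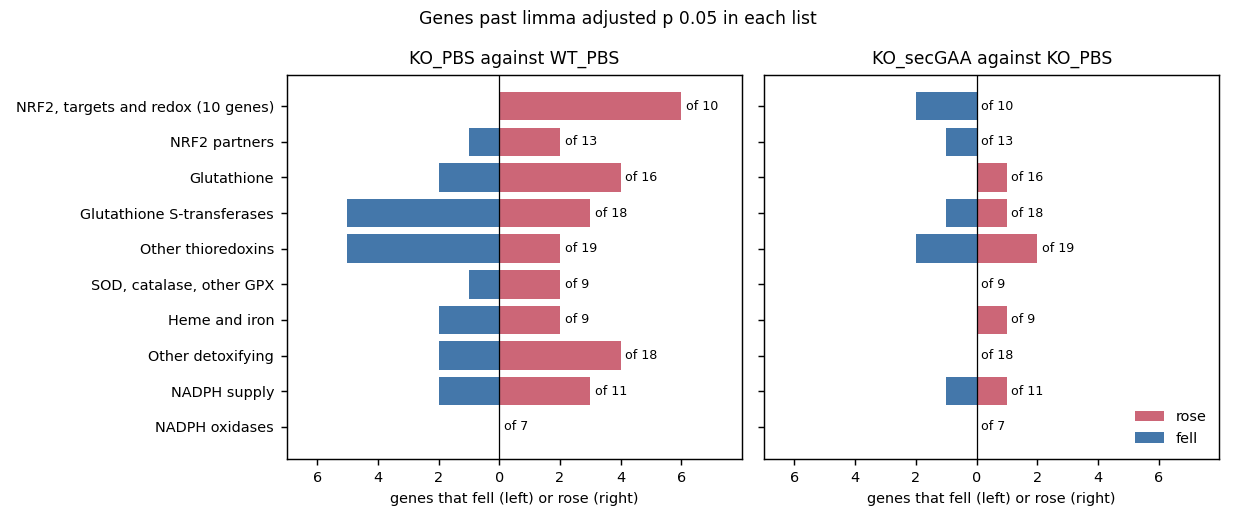
Number of genes that rose (red, right) or fell (blue, left) by limma in each list, with the number tested, for KO_PBS against WT_PBS and KO_secGAA against KO_PBS. The 10 genes described here have 6 rises and no fall on the left, and most other lists have both.

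Of 9 heme and iron genes, 2 rose and 2 fell, where 10.9% of all genes rose and 11.0% fell. The ferritin light chain Ftl1 rose 1.82-fold (limma adjusted p = 0.00844), the iron exporter Slc40a1 fell by 0.72 (adjusted p = 0.000835) and the transferrin receptor Tfrc by 1.02 (adjusted p = 0.00437). Of 18 other detoxifying genes 4 rose and 2 fell: Akr1b8 rose 4.02-fold (adjusted p = 0.00225), Aox1 rose 1.72-fold (adjusted p = 0.00386) and Akr1b10 fell by 0.83 (adjusted p = 0.00123). Of 11 genes of NADPH supply and of the pentose phosphate pathway, not all of which make NADPH, 3 rose and 2 fell. Pgd of the pentose phosphate pathway rose 3.02-fold (adjusted p = 0.000524), from 21.95 to 28.28 in WT_PBS to 57.09 to 85.73 in KO_PBS, and Taldo1 rose 1.34-fold (adjusted p = 0.0202). The malic enzyme Me1 fell by 1.03 (adjusted p = 0.000283). Taldo1 lost its call in 4 fits, those that left out WT_PBS 2, WT_PBS 3, KO_PBS 1 or KO_PBS 3, with an adjusted p of at most 0.0768. Of 7 NADPH oxidase subunits, 0 passed in limma or edgeR and 2 in DESeq2, and 3 were higher at an unadjusted p under 0.05 in limma.

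In KO_secGAA against KO_PBS, 6 of these 120 genes rose and 5 fell, 9.17% beside 3.67% of all genes. Msrb3 rose 1.66-fold (limma adjusted p = 0.00827), Slc40a1 1.68-fold (adjusted p = 0.00467), Me1 1.44-fold (adjusted p = 0.036), Oplah 1.46-fold (adjusted p = 0.0431) and Gstk1 1.41-fold (adjusted p = 0.0478). Pgd fell by 0.97 (adjusted p = 0.028), Gstp2 by 0.71 (adjusted p = 0.0253), Dpp3, a peptidase that can bind KEAP1, by 0.55 (adjusted p = 0.0209) and Txnl1 by 0.41 (adjusted p = 0.0184). Of these 9 calls, those of Msrb3 and Slc40a1 held with every library left out in turn; the others did not. Gstk1 was lost without any of 8 libraries (all but WT_PBS 1), and Oplah without WT_PBS 3 or any knockout library. Me1 was lost without WT_PBS 3, any KO_PBS library, KO_secGAA 2 or KO_secGAA 3, and Dpp3 and Txnl1 without any KO_PBS library, KO_secGAA 2 or KO_secGAA 3. Pgd was lost without KO_PBS 1, KO_PBS 3, KO_secGAA 2 or KO_secGAA 3, and Gstp2 without KO_PBS 2, KO_PBS 3, KO_secGAA 1 or KO_secGAA 2. Gstk1, Oplah and Me1 were lost without the scaling factors, and Gstk1 and Oplah with limma voom. With the 2 groups alone Gstk1, Dpp3, Pgd and Gstp2 were lost (adjusted p up to 0.151 over all of these). To complete the count, outside the rule, Txnrd2 rose 1.35-fold (limma adjusted p = 0.0407) and Txndc17 fell by 0.47 (adjusted p = 0.0218). Their re-fits were not examined. In KO_secGAA against WT_PBS 5 of the 120 rose and 4 fell, 7.5% beside 3.72% of all genes.

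The 5 genes whose profile over the 9 libraries was nearest to that of Nqo1, by the root mean square difference of log2 values centred on the WT_PBS mean, were Evi2b, Htatip2, Pdk3, Emb and Gstp2, at 0.18, 0.19, 0.21, 0.21 and 0.24. Htatip2, an oxidoreductase, was at 10.5 to 14.84 in WT_PBS, 37.02 to 46.2 in KO_PBS and 23.56 to 27.2 in KO_secGAA. Evi2b, a membrane protein of leukocytes, was at only 0.246 to 0.446 in WT_PBS, so its values rested on few reads. Pdk3 (0.386 to 0.926 in WT_PBS) and Emb (0.808 to 1.817) were low as well, with 5 and 11 reads in their lowest libraries. Means in WT_PBS and KO_PBS were 0.317 and 1.814 for Evi2b, and 0.721 and 3.167 for Pdk3. At such levels the added 0.5 shrinks log2 differences, which bears on their nearness to Nqo1. Of the 9 other redox genes described here, Txn1 was the nearest to Nqo1, at 0.47 and rank 195 of the genes tested, and Prdx1 the farthest, at 1.23.

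Markers of other cells were counted in KO_PBS against WT_PBS, where 10.9% of all genes rose and 11.0% fell. The rise of 1 fibroblast marker of 8 lay near that share. Of 19 macrophage markers 7 rose and 0 fell in KO_PBS, with 13 higher and 0 lower at an unadjusted p under 0.05 in limma, and their summed level was 131.3 to 206.5 in WT_PBS, 319.3 to 454.6 in KO_PBS and 178.0 to 377.4 in KO_secGAA. Cd68 was at 2.42 to 4.42, 12.17 to 14.78 and 5.44 to 8.35 in the 3 groups, and none of the 19 was at 0 in any library. Of 13 fibre markers 6 fell and 1 rose. Among 10 endothelial markers 5 fell and 0 rose, with 0 higher and 7 lower at an unadjusted p under 0.05 in limma. Satellite cell markers rose for 2 of 8 and 0 fell. Fibroblast markers rose for 1 of 8 and 0 fell (4 higher and 0 lower at an unadjusted p under 0.05). Of 5 erythroid markers 0 passed in limma, edgeR or DESeq2, and 3 were lower at an unadjusted p under 0.05 in limma. The part of these cells in the levels of the 10 genes was not tested.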

How the data were processed

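Polyadenylated RNA of quadriceps was sequenced as single-end reads of 61 bp, per the labels' protocols. RSEM, cutadapt, CASAVA, edgeR, limma and the build GRCm38 are listed in the submitters' processing notes, without versions or order; strand use is not given in the sources used here. The authors deposited 1 table of normalized counts, a signal per gene and library. Every one of its 118044 values was an odd multiple of its column's smallest within a relative tolerance of 1e-06, so 100% gave whole reads: reads plus 0.5, over total reads times a TMM factor, times 1000000. Effective sizes from edgeR 4.0.16 gave the signal back within 9.2e-08. Library depth was 9299156 to 15957106 reads.

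limma 3.58.1 (R 4.3.3) was run on log2(value + 0.5) after dropping 27 genes that did not reach 1 in 3 libraries, with 3 group means, a trend and 6 residual degrees of freedom. edgeR, DESeq2 1.42.0 and limma voom on recovered reads, other pseudocounts, filters and scalings, pairs of groups and leaving out each library were alternatives. On the recovered reads edgeR's quasi-likelihood test called 2845 genes between untreated knockout and wild type (limma 2867), 445 between treated and untreated knockout (limma 481) and 503 between treated knockout and wild type (limma 487). The fit was tested on simulated data. Coordinates and exon lengths are from GENCODE M21 (GRCm38), by identifier.

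The members and lists were chosen with earlier results of these data known. Named besides the 10 genes were Gaa, up to 3 called genes of each pathway list in KO_PBS against WT_PBS and up to 2 in KO_secGAA against KO_PBS, by smallest p, up to 2 genes of each marker list, and the 5 nearest to Nqo1.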

Additional observations from a re-analysis of the deposited data

How the results depend on the processing

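No paired analysis was possible because the labels give the groups no shared replicate numbers. With other pseudocounts (0.1 and 2), filters (none, or 5 or more in 3 libraries), quantile normalization, edgeR, DESeq2, limma voom or 2 groups only, the counts of the 10 genes called in each comparison stayed at 6, 2 and 5. Leaving out 1 library gave 5 to 9 in KO_PBS against WT_PBS, 1 to 2 in KO_secGAA against KO_PBS and 0 to 5 in KO_secGAA against WT_PBS.

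Without the scaling factors, genes called of all tested numbered 4984 (89.6% higher, against 49.9% of 2867), 959 (10.6% higher, against 37.2% of 481) and 1007 (86.2% higher, against 49.1% of 487) in the 3 comparisons. The median of all genes shifted by 0.305, -0.144 and 0.155. DESeq2 gave 798 and 1022 for the comparisons with KO_secGAA, and the fit of the 2 groups alone gave 316 for KO_secGAA against KO_PBS. Leaving out 1 library gave 1744 to 2847, 159 to 568 and 94 to 503. The 15 pathway and marker genes called in KO_secGAA against KO_PBS became 23 without scaling factors, 29 with DESeq2, 8 with 2 groups and 4 to 19 without 1 library. The 11 in KO_secGAA against WT_PBS became 19, 29, 7 (limma voom), 3 and 1 to 14. The cause was not tested.

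Signs turned only for differences that had not passed. In KO_secGAA against KO_PBS without scaling factors these were Nfe2l2 (-0.0526), Gclc (-0.0742), Gclm (-0.0808) and Prdx1 (-0.0643), and without 1 library Gclc spanned -0.0153 to 0.162 and Gclm -0.0468 to 0.154. Prdx1 became 0.213 without scaling factors and 0.00768 with quantile normalization in KO_PBS against WT_PBS, and 0.148, 0.05 and -0.0951 to 0.105 (without 1 library) in KO_secGAA against WT_PBS. Of 570 re-fits of the 10 genes, 528 kept direction and side of the threshold. Depth limits Gsta1, Slc7a11 and Evi2b most, at a few reads or fewer in wild type. Pdk3 and Emb were low there as well.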
